A study of Mus musculus with 20 samples.

Results

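The melanogenesis genes described here are *Tyr*, *Tyrp1*, *Dct*, *Pmel*, *Mlana*, *Oca2*, *Slc45a2* and *Mitf*, 8 of the 18754 genes listed in all 4 expression tables of a bulk RNA-Seq study of mouse retina. They were taken by gene symbol from a fixed list, and each was found in every table. The 20 libraries fall into 4 groups of 5. The first experiment set *Atf6*-/- against *Atf6*+/+ retinas at P17 after oxygen-induced retinopathy (OIR), in which pups of both sexes and their mothers were kept in 75% oxygen from P7 to P12 and then in room air. The second set retinas of wild type P30 mice collected 24 h after an intravitreal injection of Ceapin-A7, a small molecule that blocks the activation of ATF6, at 10 µM in 1 µL, against retinas injected with the saline vehicle, named PBS in the labels. Saline with a little solvent carried both, and the labels give 1 range of solvent for both solutions while the study's methods give more DMSO in the control, so solvent and compound cannot be told apart if the methods hold. All mice were on the C57BL/6J background, and both oxygen exposure and injection were shared by treated and control groups of their experiment. The *Atf6*-/- allele carries a premature stop codon, so the level of *Atf6* RNA does not check the genotype, and its mean lay between 14.9 and 16.4 FPKM in the 4 groups. Whether the 5 libraries of a group came from 5 separate mice is not stated in the labels, so p-values measure the spread between libraries.

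Melanin is made in melanosomes, organelles of melanocytes and of the pigmented epithelia of the eye. Tyrosinase starts the pathway from tyrosine, TYRP1 and DCT act on later intermediates, PMEL forms the fibrils on which pigment is laid down, and transporters such as OCA2 and SLC45A2 keep the lumen at a pH at which tyrosinase works. MITF is the transcription factor that drives many of these genes. The neural retina itself makes no melanin. Pigment cells lie next to it, in the retinal pigment epithelium, the choroid, the ciliary body and the iris, and in bulk tissue fewer cells of a type and less RNA per cell cannot be told apart.

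MITF and its relatives bind E-box sequences, and a 9-base extended E-box, TCATGTGCT, is known from promoters of pigment genes as the M-box. Finding the M-box in such genes is therefore not a test, and its part in their levels was not tested. The upstream stretches that hold the M-box are shown for the 3 members in which it was found. They were read 5′ to 3′ on each gene's own strand from the RefSeq promoter table of GRCm38.p6, not the build to which the authors aligned, and the capitals mark the M-box.
*Tyr*, chr7:87493513-87493574, minus strand: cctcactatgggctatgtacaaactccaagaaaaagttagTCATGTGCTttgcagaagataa
*Tyrp1*, chr4:80834126-80834212, plus strand: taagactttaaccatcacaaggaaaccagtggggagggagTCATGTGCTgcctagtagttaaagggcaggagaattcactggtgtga
*Dct*, chr14:118052349-118052437, minus strand: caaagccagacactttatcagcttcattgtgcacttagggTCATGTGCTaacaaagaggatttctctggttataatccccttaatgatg
The first base of the M-box lies at -22 in *Tyr*, -47 in *Tyrp1* and -151 in *Dct*, counted from the annotated start of transcription. All of it is promoter sequence outside the transcript.

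The table held promoters of 5 of the 8 members, 7 promoters in all because *Mitf* has 3, and each covers 250 bases before the start and the first bases after it. TCATGTGCT was searched on both strands and was found in 110 of 32851 promoters, 0.335%. Its core, CATGTG on either strand, was found in 12.3% of promoters and in 4 members, the 3 above, where it lies inside the M-box, and *Oca2*, where it starts at -186. *Dct* holds a further copy of the core at -232. CACGTG, the palindromic E-box, was found in 6.02% of promoters and in none of the 7 searched for these genes. A match describes the letters in this window only.

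Levels in FPKM, which are divided by transcript length and so can be set beside each other between genes, placed *Dct* highest of the 8 members in 19 of 20 libraries and *Slc45a2* lowest in 20 of 20. The exception was *Atf6*+/+ OIR replicate 2, in which *Pmel* at 3.13 FPKM lay above *Dct* at 2.74. The 7 pigment genes other than *Mitf* varied widely between libraries of one group, with the highest library at more than 2 times the lowest in every group, whereas *Mitf* spread between 1.30 and 1.79 times. *Mlana* spread most in *Atf6*+/+ OIR at 23.5 times, *Atf6*-/- OIR at 9.75 times and PBS at 28.5 times, and *Slc45a2* spread most after Ceapin-A7 at 16.9 times.

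**Figure D1:**
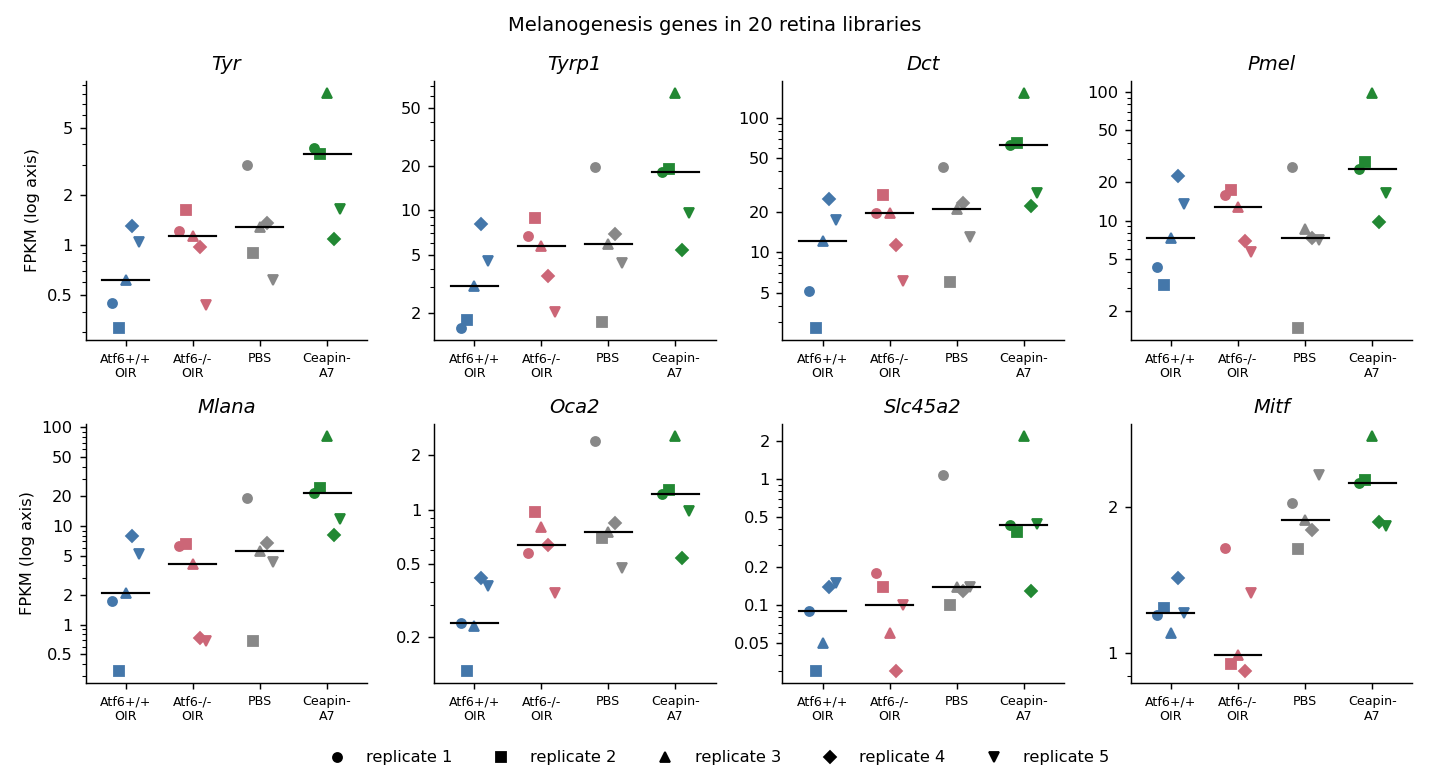
FPKM (log axis) of the 8 melanogenesis genes, 1 panel per gene, with 1 point per library, the marker shape giving the replicate number and the horizontal line the group median of 5 libraries. Ceapin-A7 replicate 3 is the highest of the 20 libraries in every panel, with *Dct* at 153.95, and the ranges of treated and control libraries overlap in each comparison.

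The enzymes of the pathway come first. *Dct*, dopachrome tautomerase, measured 5.16, 2.74, 12.06, 25.12 and 17.39 FPKM in the 5 *Atf6*+/+ OIR libraries and 19.62, 26.47, 19.62, 11.39 and 6.08 in the 5 *Atf6*-/- OIR libraries. It measured 43.22, 6.01, 20.88, 23.39 and 13.02 in PBS and 62.37, 65.33, 153.95, 22.25 and 27.77 after Ceapin-A7. In OIR only 1 *Atf6*-/- library lay above all *Atf6*+/+ libraries, while after Ceapin-A7 3 of 5 libraries lay above all PBS libraries and the other two lay among the upper PBS values. The means were 12.5 ± 9.12 against 16.6 ± 7.96 in OIR and 21.3 ± 14.0 against 66.3 ± 52.7 for PBS against Ceapin-A7 (SD, n = 5 each).

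*Tyrp1*, the tyrosinase-related protein that stabilises tyrosinase in the melanosome, measured 1.59, 1.79, 3.08, 8.08 and 4.53 FPKM in *Atf6*+/+ OIR and 6.74, 8.83, 5.73, 3.57 and 2.05 in *Atf6*-/- OIR. In PBS it measured 19.65, 1.74, 5.94, 6.94 and 4.38, and after Ceapin-A7 18.22, 19.03, 63.25, 5.34 and 9.58. PBS replicate 1 lay above 4 of 5 Ceapin-A7 libraries and above the other PBS libraries. *Tyr*, which encodes tyrosinase, the rate-limiting enzyme, was lower throughout. Its values were 0.45, 0.32, 0.62, 1.30 and 1.04 in *Atf6*+/+ OIR and 1.21, 1.61, 1.13, 0.97 and 0.44 in *Atf6*-/- OIR. They were 3.00, 0.89, 1.29, 1.36 and 0.62 in PBS and 3.78, 3.51, 8.13, 1.09 and 1.65 after Ceapin-A7. The same 3 Ceapin-A7 libraries, replicates 1 to 3, lay above all PBS libraries for *Tyr*, and the ranges of both pairs of groups overlapped.

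Of the melanosome proteins, *Pmel* measured 4.32, 3.13, 7.31, 22.04 and 13.32 FPKM in *Atf6*+/+ OIR and 15.64, 17.11, 12.82, 6.99 and 5.69 in *Atf6*-/- OIR. It measured 26.11, 1.47, 8.60, 7.29 and 7.00 in PBS and 25, 28.67, 98.06, 9.81 and 16.37 after Ceapin-A7. Apart from PBS replicate 1, every PBS library lay below every Ceapin-A7 library, and in OIR the highest library was an *Atf6*+/+ one. *Mlana*, which encodes a small membrane protein that binds PMEL and is also known as MART-1, measured 1.75, 0.34, 2.08, 8 and 5.17 in *Atf6*+/+ OIR and 6.31, 6.63, 4.09, 0.74 and 0.68 in *Atf6*-/- OIR. Its values were 19.39, 0.68, 5.65, 6.75 and 4.37 in PBS and 21.88, 24.11, 81.88, 8.21 and 11.76 after Ceapin-A7. *Mlana* resembled *Pmel* in the injected retinas, with PBS replicate 1 again the one PBS library above any Ceapin-A7 library, and PBS replicate 2 lowest and Ceapin-A7 replicate 3 highest for both.

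The transporters had low levels. *Oca2*, a melanosomal anion channel subunit whose loss causes albinism, measured 0.24, 0.13, 0.23, 0.42 and 0.38 FPKM in *Atf6*+/+ OIR and 0.58, 0.97, 0.80, 0.64 and 0.35 in *Atf6*-/- OIR. In PBS it measured 2.37, 0.70, 0.75, 0.85 and 0.48, and after Ceapin-A7 1.22, 1.29, 2.54, 0.54 and 0.98. In OIR 4 of 5 *Atf6*-/- libraries lay above every *Atf6*+/+ library, the widest separation among the members, and the fifth lay inside the *Atf6*+/+ range. In the injected retinas PBS replicate 1 was above 4 of 5 Ceapin-A7 libraries. *Slc45a2*, a transporter-like melanosomal protein that is also linked to albinism, lay between 0.03 and 0.18 FPKM in the 10 OIR libraries. It measured 1.07, 0.10, 0.14, 0.13 and 0.14 in PBS and 0.43, 0.38, 2.2, 0.13 and 0.44 after Ceapin-A7. Its OIR values are close to the 2 decimals of the deposited FPKM, and a difference there was not detectable at this level.

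*Mitf*, the regulator, spread less between the libraries of a group than the other members. It measured 1.2, 1.24, 1.1, 1.43 and 1.21 FPKM in *Atf6*+/+ OIR and 1.65, 0.95, 0.99, 0.92 and 1.33 in *Atf6*-/- OIR. In PBS it measured 2.04, 1.64, 1.88, 1.79 and 2.33, and after Ceapin-A7 2.24, 2.27, 2.80, 1.86 and 1.83. All values lay between 0.92 and 2.80 FPKM. A gene-level FPKM adds up the *Mitf* transcripts that start at different promoters, so the melanocyte form and the pigment epithelium forms cannot be told apart.

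By mean level the order was *Atf6*+/+ OIR, *Atf6*-/- OIR, PBS and Ceapin-A7 for 6 members, *Tyr*, *Tyrp1*, *Dct*, *Mlana*, *Oca2* and *Slc45a2*. For *Pmel* PBS (10.1 ± 9.36 FPKM) lay between *Atf6*+/+ OIR (10.0 ± 7.79) and *Atf6*-/- OIR (11.7 ± 5.11). For *Mitf* *Atf6*-/- OIR (1.17 ± 0.316) lay below *Atf6*+/+ OIR (1.24 ± 0.121), with PBS at 1.94 ± 0.264 and Ceapin-A7 at 2.2 ± 0.393 (SD, n = 5 each). Neighbouring groups in these orders overlapped in their ranges, except for *Mitf* between *Atf6*+/+ OIR and PBS. The share of all genes that separate those groups was not counted, so this is not read as a result about *Mitf*. Age, oxygen, injection and experiment all differ between the OIR and the injected libraries and cannot be told apart, so these levels are a description.

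The first comparison asked how loss of *Atf6* changes the OIR retina. Among the melanogenesis genes, *Oca2* was the one that passed the unadjusted threshold the study used (p of 0.05 or less), and none passed after adjustment over all genes. Its mean was 0.280 ± 0.119 FPKM in *Atf6*+/+ and 0.668 ± 0.234 in *Atf6*-/- OIR (SD, n = 5 each). The log2 fold change was 1.03 ± 0.26 (SE, on the log2(FPKM + 0.1) scale) with an unadjusted p of 0.00184 and an adjusted p of 0.358 by limma (Benjamini-Hochberg), and permuting the libraries in the exact two-sided test of the means gave p = 0.0238. Of 15704 genes tested, 12.7% had an unadjusted p of 0.05 or less, 6.94% higher and 5.81% lower, and 0.0318% had an adjusted p under 0.05. The count of 1 in 7 tested members was close to that background. Complete separation of the groups, which no member showed, was found for 1.8% of the genes tested. *Slc45a2* was the member not tested by limma, since its mean was under the filter of 0.1 FPKM. The exact permutation test gave p = 0.817 for it, with means of 0.0920 ± 0.0531 and 0.102 ± 0.0602 FPKM.

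The remaining members had log2 fold changes of 0.53 ± 0.35 for *Tyr*, 0.59 ± 0.44 for *Tyrp1*, 0.66 ± 0.55 for *Dct*, 0.46 ± 0.48 for *Pmel*, 0.14 ± 0.81 for *Mlana* and -0.09 ± 0.16 for *Mitf* (SE). Their unadjusted limma p ran from 0.152 to 0.861, so these differences were within the spread of the libraries. Of the 7 tested members 6 were higher in *Atf6*-/- OIR, where 50.7% of all genes tested were. The median log2 fold change of the 7 was 0.53, against 0.0028 over all genes tested. It was 0.18 without *Atf6*+/+ replicate 2, where *Dct* was at 0.22 and *Pmel* at 0.13, and 0.81 without *Atf6*+/+ replicate 4. *Mlana* had no stable direction, since its log2 fold change ran from -0.46 without *Atf6*+/+ replicate 2 to 0.57 without *Atf6*+/+ replicate 4. Without *Atf6*+/+ replicate 4, the highest *Atf6*+/+ library in *Dct*, the unadjusted p of *Tyrp1* was 0.0419, and without *Atf6*-/- replicate 5, the lowest *Atf6*-/- library in *Dct*, that of *Tyr* was 0.0312. Each of these left 2 of 7 members at the unadjusted threshold, beside 24% and 25.5% of all genes tested, so the members' share was near the background in both.

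The second comparison asked how blocking ATF6 with Ceapin-A7 changes the retina without OIR. All 8 members had a log2 fold change above 0 after Ceapin-A7, as 50.3% of the genes tested did, and it was largest for *Mlana* at 2.13 ± 0.79, followed by *Pmel* at 1.85 ± 0.71, *Dct* at 1.57 ± 0.57, *Tyrp1* at 1.48 ± 0.68 and *Tyr* at 1.15 ± 0.51 (SE). These 5 genes differed by more than 2-fold in the mean of log values, as 0.454% of genes tested did in that direction. The unadjusted limma p was 0.0198 for *Mlana*, 0.0239 for *Pmel*, 0.0189 for *Dct*, 0.0509 for *Tyrp1* and 0.0448 for *Tyr*, and adjusted over 15408 genes the p of these 5 lay between 0.472 and 0.481. Thus 4 of 8 members passed the unadjusted threshold, all higher. Of all genes tested 5.04% did in that direction, 5.31% in the other and 10.4% in either. Over these libraries the pairs of members without *Mitf* had a Pearson's r between 0.778 and 0.990, as deviations from group means. The 4 are therefore not separate observations. No member passed after adjustment, as 0% of the genes tested did.

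The exact two-sided permutation of FPKM means, whose smallest possible p is 0.00794, gave 0.0556 for *Dct* and *Mlana*, 0.0635 for *Pmel*, 0.0714 for *Tyr* and 0.127 for *Tyrp1*. Differences of *Slc45a2* (log2 fold change 0.91 ± 0.62, exact permutation p = 0.476), *Oca2* (0.37 ± 0.42, p = 0.508) and *Mitf* (0.17 ± 0.13, p = 0.270) were within the spread. The median log2 fold change of the 8 was 1.31, against 0.00089 over all genes tested. No member separated the groups completely, which 1.47% of the genes tested did.

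**Figure D2:**
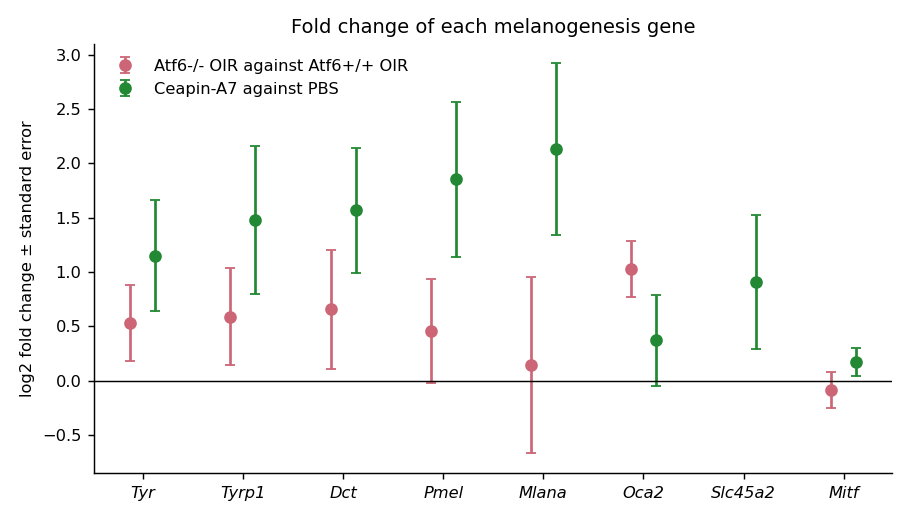
Log2 fold change of each melanogenesis gene with its standard error from limma, for *Atf6*-/- against *Atf6*+/+ OIR and for Ceapin-A7 against PBS, with 5 libraries per group. *Oca2* is highest in the OIR comparison at 1.03 and *Mlana* in the Ceapin-A7 comparison at 2.13, while *Mitf* is near 0 in both, and *Slc45a2* has no OIR point because it was not tested there.

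The spread in the injected retinas was widest through 2 libraries. PBS replicate 1 was the highest PBS library in 7 members, with *Mitf* the exception, and Ceapin-A7 replicate 3 was the highest of all libraries in every member. Relative depth, estimated from the size of the smallest FPKM steps, was 0.7 in Ceapin-A7 replicate 3 and 0.997 to 1 in the other 19 libraries, and its part in these values was not tested. With both libraries left out, a choice made after seeing the data, 6 members had an unadjusted p of 0.05 or less by limma, 2 more than with all libraries, beside 7.58% of all genes tested, and the median log2 fold change was 1.26. *Tyrp1* (1.43 ± 0.48) and *Slc45a2* (0.90 ± 0.29) joined, and the adjusted p of the 6 was 0.634 by limma. With Ceapin-A7 replicate 3 alone left out, only *Dct* stayed at the threshold (1.18 ± 0.53, adjusted p of 0.607 by limma), beside 7.86% of all genes. With PBS replicate 2 alone left out, the lowest PBS library in *Dct*, only *Mlana* did (1.48 ± 0.63, adjusted p of 0.286 by limma), beside 16.4%. Array weights in limma also left only *Mlana* (1.68 ± 0.75, adjusted p of 0.511), beside 9.69%. Without PBS replicate 1 alone there were 6, beside 10.3%.

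Each comparison was made against its own controls. Whether the difference of a member after Ceapin-A7 was unlike that with the *Atf6* deletion was not tested.

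Across libraries the pigment genes went up and down together, and *Mitf* followed them less closely, least so in OIR. Pearson's r was taken over the 20 libraries after each gene's log2 value was set to its deviation from its group mean, so that group differences do not enter. The 21 pairs among the members other than *Mitf* had r between 0.688 and 0.973, with a median of 0.864. The 7 pairs with *Mitf* had r between 0.134 and 0.539, with a median of 0.376. Within the 10 OIR libraries the *Mitf* pairs ran from -0.344 to 0.584 with a median of -0.0024, while in the 10 injected libraries they ran from 0.513 to 0.759 with a median of 0.716. For the 21 other pairs the medians were 0.894 and 0.897. The points share libraries and their depth, so these values describe the libraries and carry no test.

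**Figure D3:**
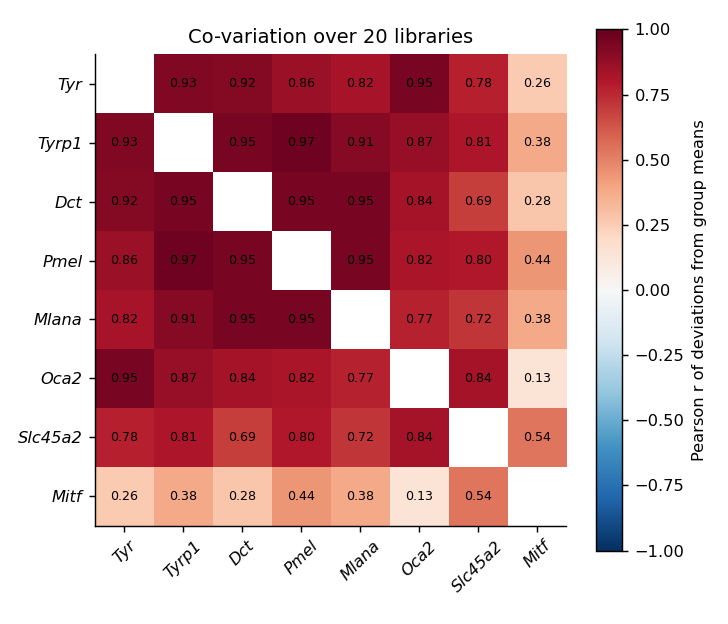
Pearson r between each pair of the 8 melanogenesis genes over 20 libraries, as deviations of log2 values from group means, with red for positive and blue for negative values. Pairs without *Mitf* hold values from 0.688 to 0.973, and pairs with *Mitf* hold values from 0.134 to 0.539.

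The proportions between members were steadier than the levels in some pairs and not in others. *Dct* over *Tyrp1* had medians of 3.25, 3.00, 3.37 and 3.42 in *Atf6*+/+ OIR, *Atf6*-/- OIR, PBS and Ceapin-A7, and single libraries ran from 1.53 to 4.17. These medians are close, although *Dct* itself had group means from 12.5 to 66.3 FPKM. *Oca2* over *Tyr* was less alike between groups. It lay between 0.323 and 0.533 in *Atf6*+/+ OIR, between 0.479 and 0.795 in *Atf6*-/- OIR, between 0.581 and 0.790 in PBS and between 0.312 and 0.594 after Ceapin-A7. The ratio was higher in 4 of 5 *Atf6*-/- libraries than in every *Atf6*+/+ library, and lower in 4 of 5 Ceapin-A7 libraries than in every PBS library. *Dct* over *Mlana* ran up to 15.4 in *Atf6*-/- OIR and 8.84 in PBS but lay between 1.88 and 2.85 after Ceapin-A7. The ratios were chosen after the values were seen and have no test.

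**Figure D4:**
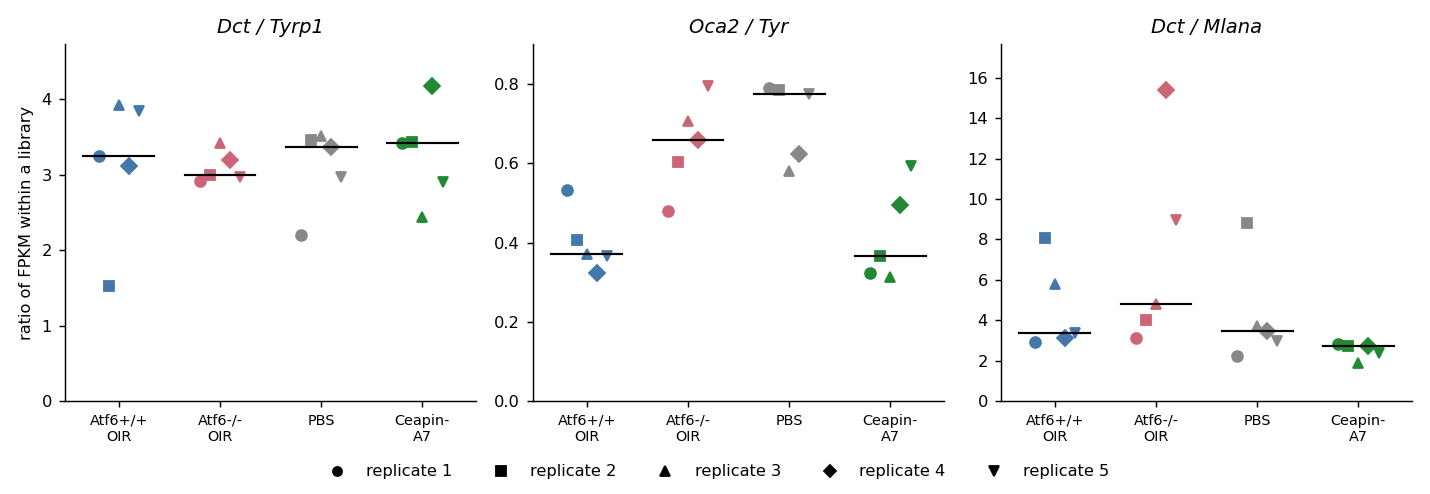
Ratios of FPKM within a library for 3 pairs of melanogenesis genes, with 1 point per library, the marker shape giving the replicate number and the line the median of 5 libraries. *Dct* over *Tyrp1* has group medians between 3.00 and 3.42, while *Oca2* over *Tyr* has medians of 0.371 in *Atf6*+/+ OIR, 0.660 in *Atf6*-/- OIR, 0.774 in PBS and 0.368 after Ceapin-A7.

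Among 12991 other genes with a mean of at least 1 FPKM, the gene most like the mean of the members over the 20 libraries was *Gpnmb* (r = 0.979), which encodes a melanosomal glycoprotein related to PMEL and is also expressed by macrophages. It was followed by *Tspan10* (r = 0.922), a tetraspanin, *Mfrp* (r = 0.918), a membrane protein of the retinal pigment epithelium and ciliary epithelium, *Gsta3* (r = 0.916), a glutathione transferase, and *Slc24a5* (r = 0.898), a cation exchanger of pigment cells. The order differed within each experiment. In the OIR libraries *Gpnmb* was at rank 1, *Tspan10* at 3 and *Slc24a5* at 24, with *Mfrp* and *Gsta3* outside the first 10. In the injected libraries *Gpnmb* was at rank 3, *Tspan10* at 8, *Mfrp* at 10 and *Slc24a5* at 30. *Gpnmb* measured 41.94, 4.85, 12.40, 12.44 and 7.54 FPKM in PBS and 33.87, 42.69, 92.21, 16.30 and 17.35 after Ceapin-A7. PBS replicate 1 and Ceapin-A7 replicate 3 were at the top of their groups, as they were for the members other than *Mitf*. *Gpnmb* differed by 1.45 ± 0.58 (log2, SE) after Ceapin-A7, with an unadjusted p of 0.0286 and an adjusted p of 0.472 by limma, and by 0.17 ± 0.38 in OIR, with an unadjusted p of 0.651.

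Of 34 other melanosome genes, covering biogenesis, trafficking and transport, 4 had an unadjusted p of 0.05 or less after Ceapin-A7, all higher, and their median log2 fold change was 0.018. Beside *Gpnmb* these were *Mlph*, which links melanosomes to a myosin motor (1.14 ± 0.51), *Bloc1s1*, a subunit of the BLOC-1 sorting complex (0.27 ± 0.11), and *Trpm1*, which bipolar cells of the retina also express at a high level (0.18 ± 0.08). In OIR 2 of 34 passed, both lower, *Hps1* (-0.21 ± 0.09) and *Bloc1s5* (-0.18 ± 0.08), with a median of -0.0073. Of all genes tested 10.4% passed after Ceapin-A7, 5.04% higher, and 12.7% in OIR, 5.81% lower. Neither count is therefore read as a result about this list. Most of this list is expressed in many cell types, and the summed level lay between 661 and 906 FPKM in all libraries.

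The factors that act on or beside *Mitf* were counted in the same way. Of 9 tested relatives and inducers of MITF, 1 had an unadjusted p of 0.05 or less in OIR, *Pax6*, an eye field transcription factor, at 0.15 ± 0.05 (log2, SE), and *Sox9* was next at -0.53 ± 0.26. After Ceapin-A7 2 were lower, the cAMP response factor *Creb1* (-0.25 ± 0.08) and the MITF relative *Tfe3* (-0.19 ± 0.07). The medians were 0.058 and -0.040. Of all genes tested 12.7% passed in OIR and 10.4% after Ceapin-A7, 5.31% lower.

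Markers of the cells that could hold melanosomes did not move as 1 group. Of 12 retinal pigment epithelium markers, 9 were higher in *Atf6*-/- OIR at an unadjusted p of 0.05 or less, where 6.94% of all genes tested were. None passed after adjustment, and the median log2 fold change of the 12 was 0.94. The 9 were read in the same libraries and are not separate observations. *Rpe65*, the visual cycle isomerase, measured 0.21, 0.31, 2.10, 2.03 and 2.68 FPKM in *Atf6*+/+ OIR and 1.1, 11.18, 5.84, 9.21 and 2.26 in *Atf6*-/- OIR (log2 fold change 2.03 ± 0.73, adjusted p of 0.362 by limma). *Ttr*, the retinol carrier transthyretin, differed by 1.76 ± 0.65 (adjusted p of 0.362 by limma). *Rlbp1*, which Müller glia also express, and *Best1* differed by 0.06 ± 0.09 and -0.25 ± 0.25. The summed level of the 12 was 294 to 424 FPKM in *Atf6*+/+ OIR and 358 to 621 in *Atf6*-/- OIR. The members that were higher there, *Oca2* first, thus stood beside higher pigment epithelium markers, and the part of these in the result was not tested.

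After Ceapin-A7 the same marker list lay the other way. At the unadjusted threshold 3 of its 12 genes were lower and none was higher, *Ttr* (-0.86 ± 0.34), *Lrat*, which makes retinyl esters (-0.88 ± 0.35), and the keratin *Krt18* (-0.22 ± 0.07). Of all genes tested 5.31% were lower at that threshold. The median log2 fold change of the 12 was -0.43. *Rpe65* measured 11.39, 14.41, 6.90, 3.87 and 3.70 FPKM in PBS and 5.47, 3.76, 1.23, 3.75 and 8.17 after Ceapin-A7 (-0.85 ± 0.50, adjusted p of 0.537 by limma). *Rlbp1* and *Best1* differed by 0.16 ± 0.14 and 0.03 ± 0.25. Ceapin-A7 replicate 3, the highest of all libraries in *Dct*, had the lowest *Rpe65* of the injected retinas at 1.23 FPKM, and PBS replicate 2, the lowest injected library in *Dct*, had the highest *Rpe65* at 14.41. *Dct* over *Rpe65* therefore ran from 0.417 in PBS replicate 2 to 125 in Ceapin-A7 replicate 3. The correlation of *Rpe65* with the mean of the members was 0.480 over the 10 OIR libraries and -0.385 over the 10 injected libraries, as deviations from group means.

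**Figure D5:**
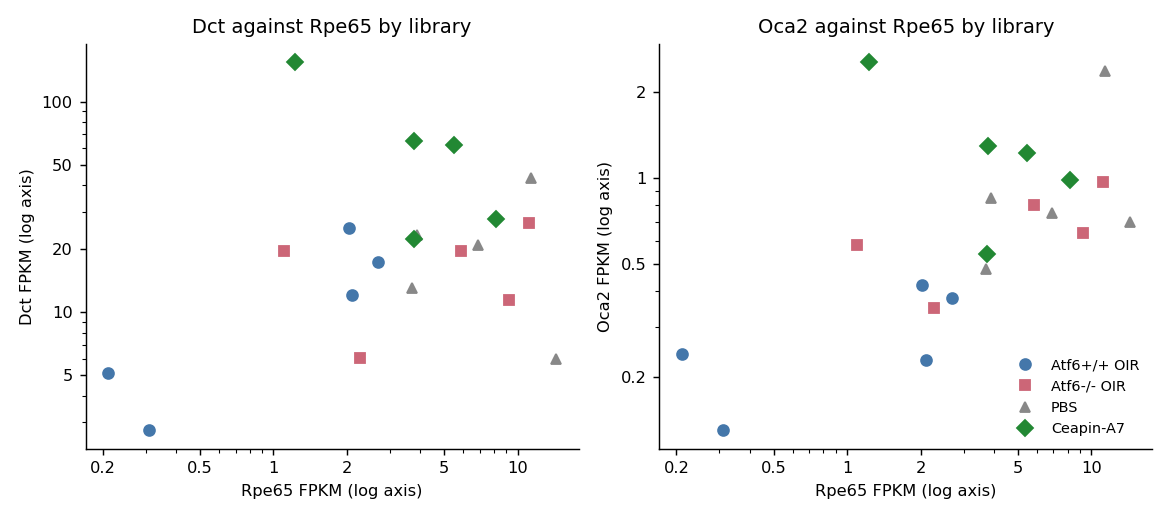
FPKM of *Dct* (left) and *Oca2* (right) against FPKM of *Rpe65*, both axes log, with 1 point per library and 1 marker shape and colour per group. The Ceapin-A7 library highest in *Dct* at 153.95 FPKM lies at 1.23 for *Rpe65*, and the *Atf6*+/+ OIR libraries lie at 2.68 or less for *Rpe65* and 0.42 or less for *Oca2*.

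Other cells with or beside pigment gave further values. Of 7 tested melanocyte lineage genes, 3 were higher in *Atf6*-/- OIR at an unadjusted p of 0.05 or less, *Mc1r*, the melanocortin receptor (0.31 ± 0.10), *Sox10* (0.79 ± 0.30) and *Ptgds* (0.71 ± 0.27), with a median of 0.11. Of all genes tested 6.94% were higher at that threshold. The receptors *Kit* (-0.31 ± 0.17) and *Ednrb* (-0.34 ± 0.18) and the ligand *Edn3* (-0.03 ± 0.28) had values below 0 and did not pass. *Pax3* was not in the OIR tables used here and was under the filter in the injected retinas. None passed after Ceapin-A7, where *Edn3* (0.97 ± 0.70) and *Mc1r* (0.22 ± 0.20) had the smallest p and the median was 0.12. *Sox10* had means between 0.0540 and 0.396 FPKM in the 4 groups, near the filter. For choroid stroma fibroblasts, 2 of 6 genes were higher after Ceapin-A7, the matrix genes *Dcn* (2.2 ± 0.75) and *Lum* (1.76 ± 0.74), and the summed level was 3.48 to 13.5 FPKM in PBS and 7.51 to 38.4 after Ceapin-A7. Both highest sums were again PBS replicate 1 and Ceapin-A7 replicate 3. In OIR 2 of 5 tested were lower, *Col1a1* (-0.90 ± 0.38) and *Col3a1* (-0.64 ± 0.18), with sums of 12.2 to 14.95 against 9.61 to 13.9. Of all genes tested 5.04% were higher after Ceapin-A7 and 5.81% lower in OIR at the unadjusted threshold. No marker listed in the tables of an experiment was at 0 in all of its libraries, and the part of these cells in the pigment values was not tested.

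Of 5 ciliary body and iris genes, *Optc* was higher in *Atf6*-/- OIR (0.50 ± 0.21) with *Wfdc1* next (0.22 ± 0.12), and none passed after Ceapin-A7, where *Mab21l1* (-0.10 ± 0.06) and *Optc* (1.62 ± 1.05) came first. Their summed level was 178 to 243 FPKM in OIR and 141 to 211 in the injected retinas. Lens fibre genes, which hold no melanin, served as a check on dissection, since lens and cornea were removed before harvest. In OIR 8 of 10 tested were lower in *Atf6*-/-, with *Cryaa* at -5.46 ± 1.28 and *Cryba1* at -5.02 ± 1.33, and the summed level was 3.68 to 503 FPKM in *Atf6*+/+ against 2.52 to 4.69. Of all genes tested 5.81% were lower and 6.94% higher in OIR at the unadjusted threshold. None of 11 passed after Ceapin-A7, with *Mip* at 1.59 ± 1.88 and *Lim2* at 1.15 ± 1.48, but the sums ran from 7.90 to 4588 FPKM in PBS and from 85.1 to 8164 after Ceapin-A7. The library with the highest lens sum was Ceapin-A7 replicate 1, not replicate 3, which had 754.

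The retina itself was well represented, with 8 rod genes summing to between 13671 and 20620 FPKM in every library. In OIR 2 were higher, *Pde6b* (0.21 ± 0.08) and *Cnga1* (0.21 ± 0.08), and after Ceapin-A7 1 was, *Sag* (0.38 ± 0.16), with *Nrl* next (0.21 ± 0.10). Of 6 Müller glia genes none passed in OIR, where *Aqp4* (0.29 ± 0.13) and *Sox2* (-0.37 ± 0.18) came first, and after Ceapin-A7 *Glul*, which encodes glutamine synthetase (0.85 ± 0.32), and *Dkk3* (0.31 ± 0.12) were higher and *Sox2* (-0.31 ± 0.11) was lower. PBS replicates 4 and 5 had the lowest rod sums of all libraries, at 14588 and 13671 FPKM. They also had the lowest Müller glia sums, at 557 and 648 FPKM, and their part in these differences was not tested. The values in parentheses are log2 fold changes with their SE, and passing means an unadjusted limma p of 0.05 or less. Of all genes tested 12.7% passed in OIR and 10.4% after Ceapin-A7.

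Over all genes the split of higher and lower calls depended on the scaling. In OIR 1090 of 2002 genes at the unadjusted threshold were higher with median-of-ratios scaling, 582 of 1906 with FPKM as deposited and 570 of 1840 after rescaling to the same sum. After Ceapin-A7 777 of 1595 were higher, 884 of 1539 as deposited and 456 of 1699 after rescaling. Under these scalings 1 of 7 members still passed in OIR and 4 of 8 after Ceapin-A7, all higher.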

How the data were processed

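Bulk RNA-Seq of 20 mouse retina libraries was used. Stranded mRNA libraries were read by the authors as pairs of 100 bp. Alignment to GRCm39 used HISAT2 (v2.0.4). RSEM (v1.2.18) gave the deposited FPKM per gene, kept to 2 decimals. Tool names and versions are from the submitters' processing notes and the paper's methods. Because FPKM are not counts, no count model or counting interval was used, and the files do not give the depth of each library, for which the methods state a single nominal number of reads.

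Each library was scaled by a median-of-ratios factor, 0.946 to 1.04, and log2(FPKM + 0.1) values of genes with a mean above 0.1 FPKM were compared within each experiment of 10 libraries by limma (version 3.58.1, eBayes with trend, R version 4.3.3). Adjustment over all genes of an experiment followed Benjamini and Hochberg. For single genes the means were also permuted exactly, two-sided, over 252 arrangements. On simulated data, 87.5% of 200 genes changed 2-fold were recovered in each experiment, of 15704 genes in OIR and 15408 after Ceapin-A7. The 200 were drawn at random and varied independently, so this share does not apply to the members. After Ceapin-A7 the SE of a member's log2 fold change reached 0.79 (*Mlana*). FPKM summed to between 410599 and 456250 per library.

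The 8 members and the 9 lists beside them were chosen with earlier results of these data known. Named genes are the members, *Atf6*, the 5 genes most like the members, *Rpe65*, *Rlbp1*, *Ttr*, *Best1* and for every list other than that of the pigment epithelium, the 2 genes of smallest p per experiment. *Trpm1*, *Mlph*, *Ptgds*, *Kit*, *Ednrb*, *Pax3*, *Lrat*, *Krt18* and *Dkk3* were added after their values were seen. Alternatives covered pseudocount, filter, scaling, limma settings, a replicate block and leaving out each library.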

Additional observations from a re-analysis of the deposited data

Results flagged for a closer look

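A test for a single library far from the other 4 of its group was applied to each of the 8 members in each of the 4 groups. A library was marked where its gap to the nearest other library, divided by the range of the group, was above 0.71, Dixon's critical value. Of 32 groups of values 7 were marked, and the members are not independent of each other. The critical value marks about 5% of groups by chance if values are normally distributed. It was applied to FPKM, where a high value stands further out than on a log scale. The 7 are therefore not set against that 5%. Each marked value was the highest of its group and came from PBS replicate 1 or Ceapin-A7 replicate 3. In Ceapin-A7 replicate 3 these were *Tyrp1* at 63.25 FPKM, with the next library at 19.03, *Pmel* at 98.06, with the next at 28.67, *Mlana* at 81.88, with the next at 24.11, and *Slc45a2* at 2.2, with the next at 0.44. In PBS replicate 1 these were *Pmel* at 26.11 FPKM, with the next library at 8.6, *Oca2* at 2.37, with the next at 0.85, and *Slc45a2* at 1.07, with the next at 0.14. No library was marked in OIR.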

How the results depend on the processing

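The members' counts after adjustment were 0 in OIR and 0 after Ceapin-A7, and of the alternatives run 1 changed this: array weights gave 1 in OIR, *Oca2* at 1.21 with an adjusted p of 0.0249 by limma, along with 2769 of all genes (5 in the main setting), 5749 at the unadjusted threshold (2002) and 3 members at that threshold. The cause was not tested. A fit of all 20 libraries called 11 genes in OIR and 1 after Ceapin-A7 after adjustment. A mean above 1 FPKM left 0 members in OIR at the unadjusted threshold, since *Oca2* is then not tested, and array weights left 1 after Ceapin-A7. Leaving out 1 library at a time gave 5 to 9 genes after adjustment and 1092 to 4011 at the unadjusted threshold in OIR, with 1 to 2 members. After Ceapin-A7 it gave 956 to 2529 genes, with 1 to 6 members. *Mlana* in OIR turned to -0.46, -0.18, -0.19 and -0.02 without *Atf6*+/+ replicate 2 and *Atf6*-/- replicates 1, 2 and 3, and was 0.57 at most. In OIR *Oca2* stayed at the unadjusted threshold in all alternatives that tested it, and after Ceapin-A7 it reached that threshold in none. Its OIR log2 fold change depended on the pseudocount, at 0.38 with 1 and 1.27 with 0.01. Same-numbered libraries did not deviate strongly together (r from -0.258 to 0.310), which does not exclude that the numbers pair samples. With the replicate number as a block, the members at the unadjusted threshold were 1 in OIR and 5 after Ceapin-A7, where *Tyrp1* joined, of 1969 and 1606 genes, and 5 and 0 genes passed after adjustment. Low levels limit *Slc45a2* and *Sox10*, for which the 2 decimals of the FPKM are coarse.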
